A study of Bos taurus with 9 samples.

Results

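The H3K9ac peaks of calf rumen epithelial tissue were compared before and after weaning. They were taken as all peaks of the 2 chromatin immunoprecipitation sequencing (ChIP-seq) libraries whose labels give H3K9ac as the target, 16511 of the 130580 peaks in the 8 lists of the series. The before-weaning list held 14384 peaks and the after-weaning list 2127. Both H3K9ac libraries came from rumen epithelial tissue of Holstein calves, were made with a rabbit polyclonal antibody and were sequenced with reads of 75 nt on lane 1. The samples carried no treatment or genetic change, so weaning stage was the only difference that the labels name. The age and number of the calves, and whether the same calves were sampled at both stages, are not given in the sources used here. The lists of 3 other targets in the same tissue were used for comparison, namely H3K27ac, H3K9me3 and RNA polymerase II (RNA pol II), each with 1 library before and 1 after weaning. These were run on lane 2, except H3K9me3 after weaning, which was run on lane 1. Each group was 1 library, so a difference between the lists has no replicate check, and weaning, animal, depth and antibody yield cannot be told apart in it.

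H3K9ac is acetylation of lysine 9 on histone H3, written by acetyltransferases and removed by histone deacetylases, and it marks the promoters of active genes and many active enhancers. H3K27ac is acetylation of lysine 27 on the same histone and sits at active promoters and enhancers, while RNA pol II is the enzyme that transcribes protein-coding genes. H3K9me3, trimethylation at lysine 9, occupies the same residue as H3K9ac and is known from heterochromatin and silenced repeats. The rumen is the forestomach chamber in which microbes ferment plant feed, and its epithelium takes up the short-chain fatty acids that they release.

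Few of the H3K9ac positions were in both lists. A peak was called kept when it shared at least 1 bp with a peak of the other list, lost when it was found before weaning alone, and gained when it was found after weaning alone. Of the 14384 peaks before weaning, 949 were kept (6.60%, 95% Wilson interval 6.20 to 7.02) and 13435 were lost, 93.4% of the list. Of the 2127 peaks after weaning, 942 were kept (44.3%, 42.2 to 46.4) and 1185 were gained, 55.7% of the list. All intervals for shares are for counting error alone, and peaks close to each other are no independent counts. The covered length was 4.48 Mb before and 0.582 Mb after weaning. Most peaks after weaning thus touched no earlier peak at an overlap of 1 bp, although the later list was the much shorter one. For the other targets the share of the before-weaning list that was lost was 80.7% for RNA pol II, 72.1% for H3K27ac and 46.4% for H3K9me3, all below that of H3K9ac. A later list that is short beside the earlier one limits how many earlier peaks can be kept. The later list divided by the earlier one gave 0.148 for H3K9ac, 0.359 for RNA pol II, 0.410 for H3K27ac and 1.73 for H3K9me3. The targets were not compared at equal lengths, so the part of list length in this order was not tested. Of the later lists, 44.3% was kept for H3K9ac, 52.6% for RNA pol II, 76.9% for H3K27ac and 30.02% for H3K9me3. The RNA pol II values follow the stages in the labels, which the study's text gives the other way round. With the stages exchanged, 47.4% of its earlier list was lost in place of 80.7%, and 19.3% of its later list was kept in place of 52.6%, which is below the share for H3K9ac. Among the 2127 widest peaks of each list, 15.3% of the earlier and 15.8% of the later peaks were kept. Lists of equal length with mostly 1-to-1 overlaps have near-equal shares by construction, so these values show the level alone. With a reciprocal overlap of 50% the kept shares of the full lists were 4.20% and 28.4%, and with all peaks extended by 1 kb on both sides they were 12.3% and 57.1%, so with the extension fewer of the later peaks were gained than kept.

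Kept peaks were wider than lost peaks before weaning. The median width was 352 bp (337 to 366) for kept and 262 bp (260 to 264) for lost peaks, and 4.22% of the kept peaks against 11.0% of the lost peaks had the lowest width in the lists, 200 bp. Among the peaks after weaning the median was 256 bp (252 to 261) for kept and 233 bp (230 to 237) for gained peaks, and 18.1% of the gained peaks were 200 bp wide. Gained peaks thus included the largest share of peaks at the lowest width of these 4 classes. In 5 width classes of about equal size, the share of the peaks before weaning that was kept was 2.93% at 200 to 214 bp, 3.60% at 215 to 245 bp, 5.06% at 246 to 294 bp, 7.40% at 295 to 386 bp and 14.1% (12.9 to 15.4) at 387 to 1581 bp. The share was higher in each wider class. A wider peak meets an overlap of 1 bp more easily, and the part of this in the trend was not tested. Even in the widest class, most peaks were not found again.

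A kept peak was usually narrower after weaning. Of the kept positions, 899 joined exactly 1 peak before with exactly 1 peak after weaning. In these the median width was 354 bp (339 to 371) before and 256 bp (250 to 261) after, with a median ratio of 0.755 (0.722 to 0.801). The peak was narrower after weaning in 645 (71.7%, 68.7 to 74.6), wider in 235 and equal in 19. In 425 of them (47.3%) the later peak lay wholly inside the earlier one, and in 104 (11.6%) the reverse held. The centres were a median of 63.5 bp apart. Kept peaks overlap by definition, which limits how far apart their centres can lie. This distance is therefore no separate sign that the later peak marked the same place. A further 13 peaks before weaning touched 2 later peaks and 20 peaks after weaning touched 2 earlier ones.

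H3K27ac was present at nearly all H3K9ac peaks before weaning, whether kept or lost, and the classes separated by what the H3K27ac list held after weaning. Before weaning, 91.3% (89.3 to 92.9) of the kept and 89.9% (89.4 to 90.4) of the lost peaks touched an H3K27ac peak. After weaning, 90.2% (88.1 to 91.9) of the kept positions did so, against 54.3% (53.5 to 55.1) of the lost ones. A lost H3K9ac peak therefore still had H3K27ac after weaning in 7294 of 13435 cases, and a further share had an H3K27ac peak close by, since 69.4% lay within 1 kb and 78.3% within 5 kb of one. In 4875 lost peaks (36.3%) both acetylations were present before weaning and neither was called after it. With a reciprocal overlap of 50%, which asks more of wide H3K27ac peaks, the share of lost peaks with H3K27ac after weaning was 35.5%, while it was 72.0% with 1 kb extension and 83.5% among the 2127 widest peaks of each list. The 8 lists share 1 input library as their background, and its part in the overlaps was not tested.

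Read the other way, the share of H3K9ac peaks that were kept differed with the H3K27ac list. Of the 8005 peaks before weaning with H3K27ac at both stages 9.96% (9.32 to 10.6) were kept, of the 4944 with H3K27ac before weaning alone 1.40% (1.10 to 1.76), and of the 1290 with none 1.86% (1.25 to 2.75). Peaks with H3K27ac at both stages were also wider, with a median of 300 bp against 246.5 and 224 bp in the other groups. The difference held within each width class. At 200 to 214 bp, 5.48% (4.29 to 6.98) were kept with H3K27ac at both stages and 1.00% (0.588 to 1.71) with H3K27ac before weaning alone. At 387 to 1581 bp the values were 16.2% (14.7 to 17.7) and 3.61% (2.30 to 5.64). The plot of kept peaks by width and H3K27ac shows these groups apart across the whole range of widths. A further 145 peaks touched H3K27ac after weaning alone, and 59 of them (40.7%, 33.0 to 48.8) were kept, but 54 of those 59 also touched H3K9me3.

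**Figure D1:**
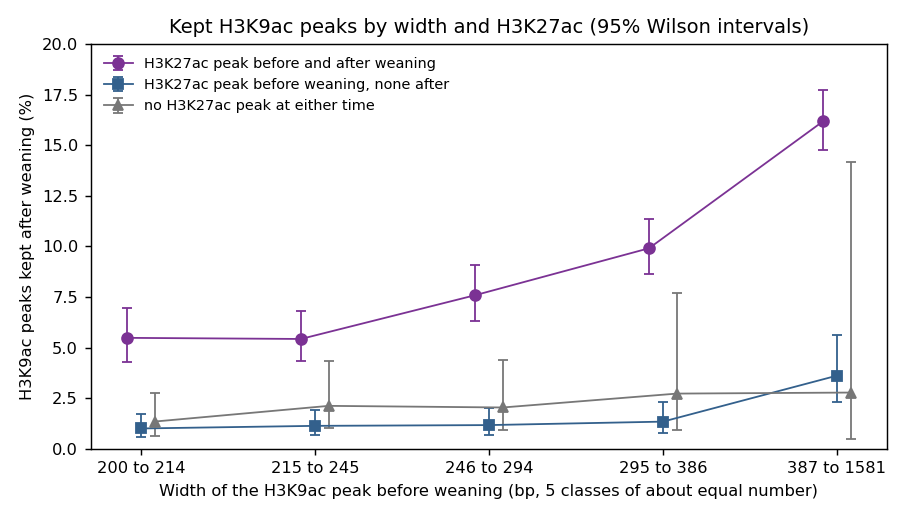
Share of the H3K9ac peaks before weaning that were kept (percent, vertical axis) in 5 classes of peak width (bp, horizontal axis), for peaks with H3K27ac at both stages, before weaning alone or at neither; points are shares of peaks in 1 library and bars are 95% Wilson intervals. The share with H3K27ac at both stages is 5.48% in the narrowest and 16.2% in the widest class, and lies above the share with H3K27ac before weaning alone in all 5 classes.

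The H3K27ac peaks also differed when they were sorted by the H3K9ac peak that they touched. Of the 838 H3K27ac peaks before weaning that touched a kept H3K9ac peak, 93.3% (91.4 to 94.8) were found again in the H3K27ac list after weaning. The share was 63.5% (62.6 to 64.5) for the 10542 that touched lost H3K9ac peaks only and 20.6% (20.2 to 20.9) for the 62290 without H3K9ac. Wide H3K27ac peaks were found again more often, and their median width was 975, 723 and 312 bp in these groups. Among H3K27ac peaks of 200 to 400 bp the shares were 73.2% (61.9 to 82.2), 27.2% (25.2 to 29.2) and 13.0% (12.7 to 13.3). The 579 H3K27ac peaks that touched gained H3K9ac peaks only, and so had no H3K9ac before weaning, were found again in 69.9% (66.1 to 73.5), and in 52.4% (46.0 to 58.7) at 200 to 400 bp. H3K27ac peaks with H3K9ac at either stage were thus found again more often than those without it, and those with gained H3K9ac more often than those with lost H3K9ac.

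Gained H3K9ac peaks had H3K27ac less often than kept ones. An H3K27ac peak was present before weaning at 667 of the 1185 gained peaks (56.3%, 53.5 to 59.1) and after weaning at 627 (52.9%, 50.1 to 55.7). In 461 (38.9%) it was present at both stages, in 206 (17.4%) before weaning alone and in 166 (14.0%) after weaning alone. Most gained H3K9ac peaks therefore stood where H3K27ac had already been called before weaning, and an H3K27ac peak called after weaning alone accompanied a minority. That majority depended on the overlap asked for, since with a reciprocal overlap of 50% the share with H3K27ac before weaning was 18.3%. The remaining 352 (29.7%, 27.2 to 32.4) touched no H3K27ac peak at either stage, against 2.44% of the kept peaks after weaning.

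**Figure D2:**
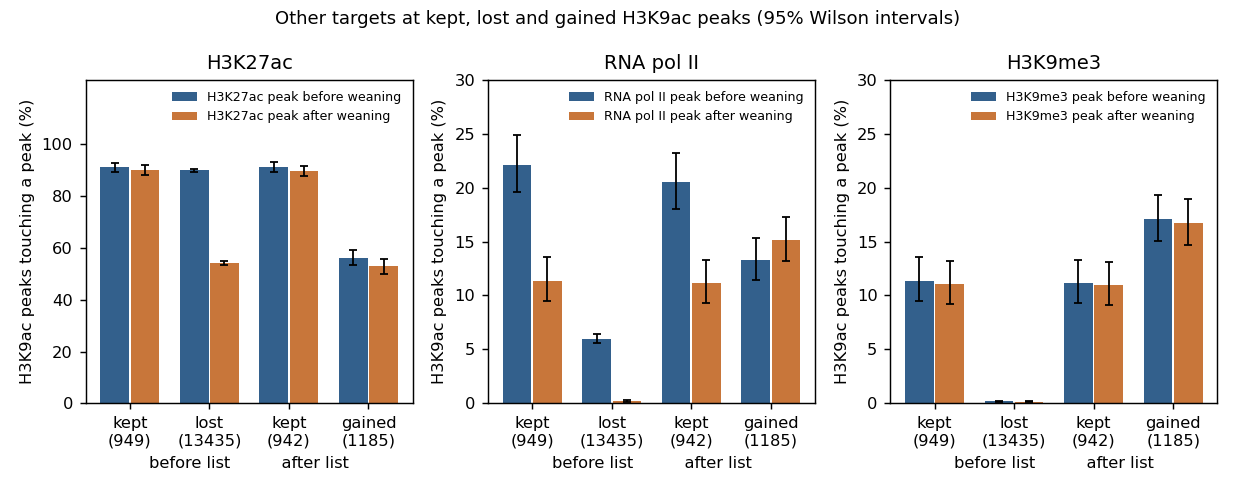
Share of H3K9ac peaks (percent, vertical axis) that touch a peak of H3K27ac, RNA pol II or H3K9me3 before (blue) or after (orange) weaning, for kept and lost peaks of the list before weaning and kept and gained peaks of the list after weaning (numbers of peaks below the bars); bars are shares in 1 library with 95% Wilson intervals. H3K27ac after weaning is at 54.3% of the lost and 52.9% of the gained peaks, against 90.2% of the kept ones, and H3K9me3 after weaning is at 16.7% of the gained peaks.

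RNA pol II was found at a larger share of kept than of lost peaks. By the labels' time points, 22.1% (19.6 to 24.9) of the kept and 6.01% (5.62 to 6.42) of the lost peaks touched an RNA pol II peak before weaning. After weaning the shares were 11.4% (9.51 to 13.6) and 0.179% (0.120 to 0.266). Of the 124 H3K9ac peaks before weaning with RNA pol II at both stages 103 were kept (83.1%, 75.5 to 88.6), of the 893 with RNA pol II before weaning alone 12.0% (10.01 to 14.3), and of the 13359 with none 5.49% (5.12 to 5.89). Among gained peaks 13.3% (11.4 to 15.3) had RNA pol II before and 15.1% (13.2 to 17.3) after weaning. Counted at either stage, which does not depend on the order of the RNA pol II lists, the shares were 22.7% (20.1 to 25.4) of the kept peaks before weaning, 6.03% (5.64 to 6.44) of the lost and 17.05% (15.0 to 19.3) of the gained peaks. These shares combine sites of different kinds, which separated once H3K9me3 was taken into account.

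H3K9me3 was rare at lost peaks and present at a sizeable minority of kept and gained ones. It was found at either stage at 29 of the 13435 lost peaks (0.216%, 0.150 to 0.310), at 111 of the 949 kept peaks before weaning (11.7%, 9.80 to 13.9) and at 212 of the 1185 gained peaks (17.9%, 15.8 to 20.2). At 188 of the 212 gained peaks H3K9me3 was called at both stages, so the H3K9me3 peak was already there before weaning. Of the 113 H3K9ac peaks before weaning with H3K9me3 at both stages, 102 were kept (90.3%, 83.4 to 94.5). The number of H3K9ac peaks that touched H3K9me3 was 140 before and 320 after weaning, a ratio of 2.29, while the number of all others was 14244 and 1807, a ratio of 0.127. H3K9ac peaks with H3K9me3 were therefore the ones that were more numerous after weaning, against the direction of the list as a whole. The share of gained peaks with H3K9me3 after weaning was 16.7% (14.7 to 18.9), and was 8.72% without regions that held all 4 targets, 7.03% with a reciprocal overlap of 50% and 27.8% (23.9 to 32.1) among peaks wider than the median.

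RNA pol II was called at most of the H3K9ac peaks with H3K9me3. It was present at either stage at 106 of the 111 kept peaks before weaning (95.5%) and at 190 of the 212 gained peaks (89.6%, 84.8 to 93.1). H3K27ac was present at 80.2% (71.8 to 86.5) and 45.8% (39.2 to 52.5) of them. These sites thus held peaks of targets that are known from opposite kinds of chromatin, and the part of the shared input at them was not tested. Away from H3K9me3, RNA pol II was found at 13.0% (10.9 to 15.5) of the kept peaks before weaning, 5.91% (5.52 to 6.32) of the lost and 1.23% (0.707 to 2.14) of the gained peaks. H3K27ac was found there at 99.8% of the kept, 90.6% of the lost and 75.6% (72.9 to 78.2) of the gained peaks. Without H3K9me3, the order from kept over lost to gained was therefore the same for both active marks, and 12 of 973 gained peaks touched RNA pol II. These kept and lost peaks come from the earlier H3K9ac list and the gained peaks from the later one. RNA pol II was counted at either stage, and its list labelled before weaning was the longer, with 2056 peaks against 738. The part of this in the low share at gained peaks was not tested.

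The H3K9me3 sites included wide gained peaks. The median width of the 212 gained peaks with H3K9me3 was 270 bp (255 to 290), against 234 bp (231 to 239) for the 736 with H3K27ac and no H3K9me3 and 214 bp (206 to 221) for the 235 without any other target. For kept peaks with H3K9me3 the median was 285 bp (264 to 312) before and 361 bp (324 to 435) after weaning. For kept peaks with H3K27ac and no H3K9me3 it was 365 bp (350 to 380) before and 251 bp (246 to 255) after. The narrower width of kept peaks after weaning was thus a feature of the sites without H3K9me3, and the medians at the H3K9me3 sites were in the opposite order.

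The lower number of peaks after weaning extended to all 30 chromosomes. The ratio of peaks after to peaks before weaning was 0.148 over the genome, with a median of 0.143 across chromosomes, and its 95% exact interval included the genome value on 25 of 30 chromosomes. The lowest ratios were 0.0965 (0.0682 to 0.133) on chromosome 25, 0.102 (0.0800 to 0.129) on chromosome 7 and 0.111 (0.0820 to 0.148) on chromosome 22. The highest were 0.355 (0.291 to 0.431) on chromosome 17, 0.198 (0.148 to 0.261) on chromosome 9 and 0.176 (0.138 to 0.221) on chromosome 8. Peak density before weaning was between 0.470 per Mb on chromosome X and 13.5 per Mb on chromosome 19, and the same chromosomes had the lowest and highest density after weaning, 0.0672 and 2.05 per Mb. Gained peaks outnumbered kept peaks on 24 chromosomes and equalled them on 2. Kept peaks were in excess on the other 4, with 69 against 64 on chromosome 5, 40 against 39 on chromosome 7, 68 against 62 on chromosome 10 and 58 against 34 on chromosome 18.

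**Figure D3:**
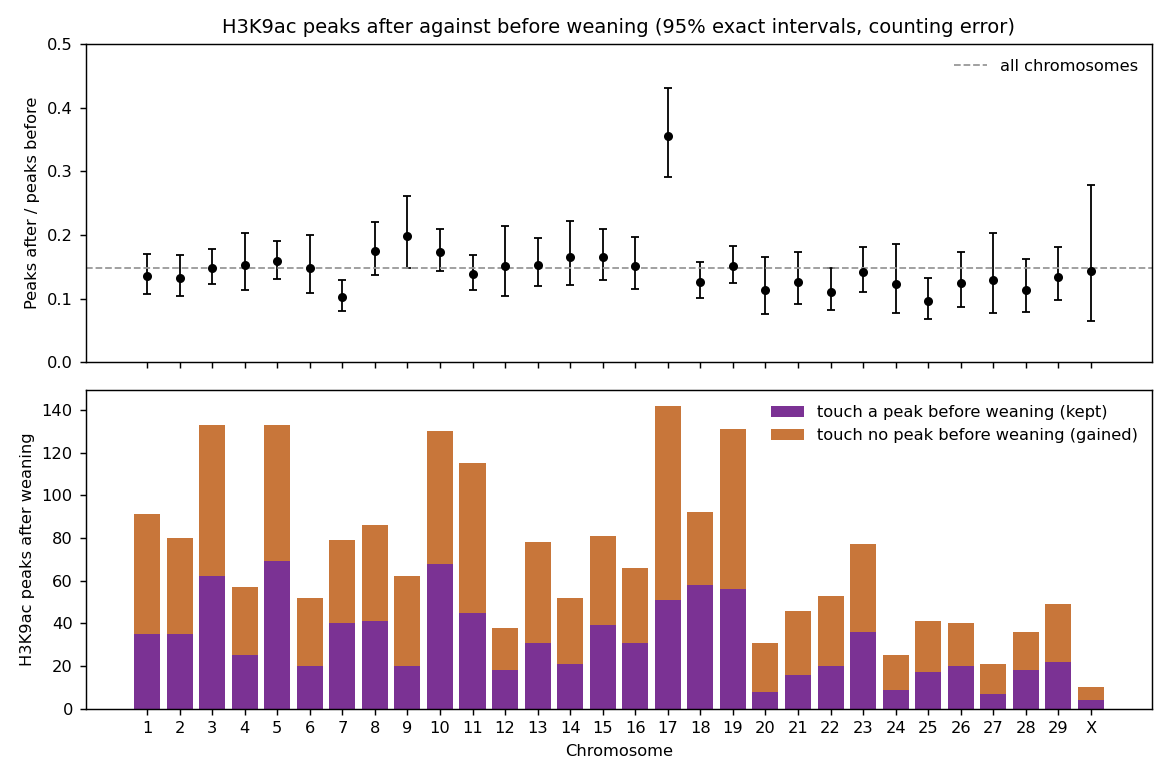
Ratio of the number of H3K9ac peaks after weaning to that before weaning on each chromosome (top, points with 95% exact intervals for counting error, dashed line at the value for all chromosomes), and number of kept and gained peaks after weaning (bottom, stacked bars), 1 library per stage. Chromosome 17 lies at 0.355, above all others, and 91 of its 142 peaks after weaning are gained.

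The high ratio of chromosome 17 came from 1 region. Between 50 and 52 Mb there were 29 H3K9ac peaks before and 82 after weaning, of which 24 were kept and 58 gained. Of the gained peaks in that region, 57 touched H3K9me3 and 55 touched RNA pol II. On the rest of chromosome 17 there were 371 and 60 peaks, a ratio of 0.162, near that of the genome. Outside the region the whole lists held 14355 and 2045 peaks, a ratio of 0.142, so the genome value does not rest on it. The 155 gained peaks with H3K9me3 outside the region were spread over 26 chromosomes. Chromosome 17 held 69 of all 212, chromosome 9 held 23 and chromosome 19 held 19.

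In the full lists, the H3K9ac peaks stood closer together before than after weaning. The median gap from the end of a peak to the next peak was 24564 bp (23248 to 25765) before and 296078 bp (267460 to 330738) after weaning. Of the gaps, 21.0% (20.3 to 21.6) before and 6.01% (5.07 to 7.11) after weaning were no longer than 1 kb. With peaks within 1 kb merged the medians were 47830 and 351870 bp, and among peaks above the median width 59768 and 852106 bp, the later gap being the longer in each case. A shorter list has longer gaps by its number alone. When the 2127 widest peaks before weaning were set against the 2127 after weaning, the median gaps were 291726 bp (257248 to 317656) and 296078 bp, whose intervals overlap. The shares of gaps within 1 kb were not compared at equal numbers.

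**Figure D4:**
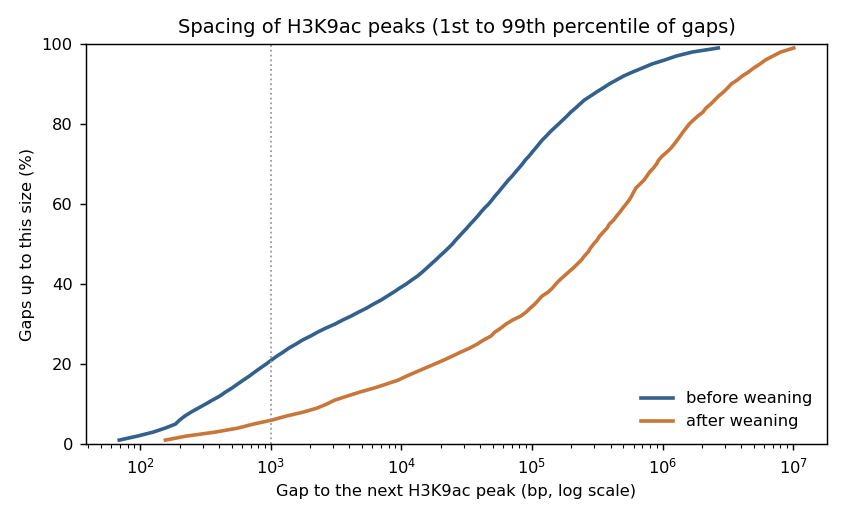
Gaps between neighbouring H3K9ac peaks (bp, log scale, horizontal axis) and the share of gaps up to that size (percent, vertical axis) in the list before (blue) and after (orange) weaning, from the 1st to the 99th percentile; the dotted line marks 1 kb. Before weaning 21.0% of gaps are within 1 kb, after weaning 6.01%, in lists of 14384 and 2127 peaks.

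Grouped peaks before weaning were found again somewhat more often than peaks that stood alone. A peak before weaning had another within 1 kb in 43.5% (40.4 to 46.7) of the kept and 36.5% (35.7 to 37.3) of the lost cases. The share kept was 7.77% (7.08 to 8.52) with and 5.91% (5.44 to 6.41) without such a neighbour. Grouped peaks were also wider (median 279 against 259 bp), and touched RNA pol II before weaning in 11.3% (10.4 to 12.2) against 4.61% (4.20 to 5.06), so spacing, width and RNA pol II moved together, and their separate parts in the kept share were not tested. H3K27ac was called after weaning at 69.0% of the grouped and 49.4% of the other peaks.

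Lost peaks were mostly far from any later peak, and gained peaks were often near an earlier one. The nearest peak after weaning lay a median of 178207 bp (170945 to 186518) from a lost peak, and within 1 kb of 4.08% of them. The nearest peak before weaning lay a median of 16046 bp (13978 to 19157) from a gained peak, within 1 kb of 16.0% (14.1 to 18.2) and within 5 kb of 33.6% (31.0 to 36.3). Since the earlier list is the denser one, these distances are not a comparison of loss with gain. Gained peaks close to an earlier peak had H3K27ac before weaning more often. The share was 70.6% (66.0 to 74.9) within 5 kb, 53.6% (49.4 to 57.7) from 5 to 100 kb and 38.8% (32.8 to 45.0) beyond 100 kb.

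When H3K9ac peaks of either list within 5 kb were joined, 10280 clusters resulted. Of these, 8442 held peaks before weaning alone, 716 after weaning alone and 1122 at both stages. Counted by cluster, 11.7% (11.1 to 12.4) of those with a peak before weaning also had one after, and 61.0% (58.8 to 63.3) of those with a peak after weaning had one before. Both shares were above those of single peaks, and 274 of the shared clusters held no kept peak. The share of clusters with a later peak was 8.10% (7.47 to 8.79) for 1 earlier peak, 15.1% (13.6 to 16.8) for 2, 26.2% (23.3 to 29.3) for 3 to 4, 36.9% (29.8 to 44.6) for 5 to 9 and 69.2% (42.4 to 87.3, 9 of 13 clusters) for 10 or more. Clusters with more peaks cover more sequence, so the share of single peaks kept is the closer measure. It was 5.78% (5.24 to 6.37) in clusters of 1 peak, 6.27% (5.56 to 7.06) in those of 2, 8.35% (7.37 to 9.44) in those of 3 to 4, 7.52% (6.01 to 9.38) in those of 5 to 9 and 13.7% (9.05 to 20.2) in those of 10 or more. The last value leaned on the cluster at chr19:3956570-3974116, which was dense in H3K9me3 and held 9 of the 20 kept peaks, and was 8.09% (4.58 to 13.9, 11 of 136 peaks) without it.

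The widest peaks and the fullest clusters are given as examples, which as extremes do not represent their classes. Positions are on the cattle assembly UMD3.1.1, without the genes at them, since no annotation of that assembly was used here. The 5 widest kept peaks with 1 partner all touched H3K27ac at both stages and RNA pol II before weaning, and none touched H3K9me3. The widest was chr13:81875818-81877291, 1474 bp before weaning, of which 266 bp remained as a peak at chr13:81876567-81876832. The other 4 were chr17:55750616-55751879 (1264 bp, then 402 bp), chr10:65463060-65464310 (1251 bp, then 519 bp), chr3:16511110-16512324 (1215 bp, then 253 bp) and chr3:14375513-14376726 (1214 bp, then 279 bp). Since they were chosen for their width before weaning, a narrower later peak is nearly fixed by the choice. Each had another H3K9ac peak within 1 kb before weaning.

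The widest lost peak, chr3:14131713-14133293, measured 1581 bp, more than any kept peak. It touched H3K27ac at both stages and RNA pol II before weaning, and the nearest later H3K9ac peak was 8326 bp away. The next, chr3:20172634-20174050 (1417 bp), had the same marks, while chr11:67965202-67966540 (1339 bp) and chr1:111685968-111687232 (1265 bp) had H3K27ac at both stages and no RNA pol II. At chr23:9667255-9668583 (1329 bp) H3K27ac was called before weaning alone. So 4 of the 5 widest lost peaks were places where H3K27ac was still called after weaning.

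All 5 of the widest gained peaks touched RNA pol II and H3K9me3 at both stages and H3K27ac after weaning, unlike most gained peaks, of which 973 of 1185 touched no H3K9me3. They were chr8:101675617-101676737 (1121 bp), chr17:51148692-51149646 (955 bp), chr17:51486134-51486986 (853 bp), chr9:7147334-7148073 (740 bp) and chr4:32273631-32274324 (694 bp). The first chromosome 17 peak also touched H3K27ac before weaning. The nearest earlier H3K9ac peak was between 4579 and 623723 bp away. Kept and lost peaks were ranked here by their width before weaning and gained peaks by their width after it, so the marks of these sets are not a comparison at 1 stage.

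The clusters with the most lost peaks held no H3K9me3. At chr29:44313970-44338281, 19 peaks before weaning stood against 1 after, with 17 lost, beside 15 H3K27ac peaks before and 19 after weaning. At chr18:48667727-48681487 and chr3:20172634-20186767, 12 peaks each were lost and none remained, beside 6 and 7 H3K27ac peaks before and 11 and 9 after weaning. In these 3 clusters the number of H3K27ac peaks was higher after weaning while H3K9ac was absent or nearly so. This is a count of peaks, and the length that they covered in the clusters was not compared. Over the whole lists H3K27ac peaks were wider before weaning, with a median of 343 bp against 290 bp, so a higher count need not mean more H3K27ac. RNA pol II had 4, 1 and 3 peaks there in the list labelled before weaning and none in the list labelled after it, a direction that turns if the stages of the RNA pol II lists are exchanged.

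Clusters with the most kept or gained peaks were mostly dense in H3K9me3. The most kept peaks were at chr19:3956570-3974116, with 10 H3K9ac peaks before and 11 after weaning, of which 9 earlier ones were kept, beside 16 H3K9me3 peaks before and 13 after. At chr9:27232228-27244500 all 4 earlier peaks were kept among 13 H3K9me3 peaks at each stage. The exception was chr3:14372857-14381898, with 4 of 7 earlier peaks kept, no H3K9me3, and 5 H3K27ac peaks before and 8 after weaning. The most gained peaks were at chr17:50627291-50633580, where 1 peak before and 7 after weaning stood among 7 H3K9me3 peaks at each stage, at chr9:7768965-7781289 (4 before, 9 after) and at chr17:25116777-25125354 (none before, 5 after). Each of these 3 held RNA pol II peaks at both stages.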

How the data were processed

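The data were 8 peak lists, 2 of them H3K9ac. The authors removed reads that failed the quality filter, aligned the others to UMD3.1.1, a cattle assembly, with BWA defaults, kept unique alignments with fewer than 2 mismatches and called peaks with MACS2 at default settings against 1 shared input library. Trim Galore 0.4.1 is also named in the submitters' processing notes. The deposited values are chromosome, start and end of each peak, with no score, so width served as the only measure of size. Read depth is not part of the lists, and no interval here covers it. The lowest difference of end and start was 199 bp, so positions were read as 1-based with both ends included. The study's text and the labels place the shorter RNA pol II list at different stages, and the labels were followed.

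Groups came from the labels. Peaks were joined by an overlap of at least 1 bp with Python 3.11.15, numpy 2.4.6, pandas 2.3.3 and scipy 1.17.1, with code tested on simulated data. Gaps run from one peak's end to the next peak's start. Chromosome length for densities was the highest peak end over the 8 lists. Shares have 95% Wilson intervals, medians have intervals from order statistics, and chromosome ratios have exact intervals. With 1 library per group no test was made. Named sites were the 5 widest kept, lost and gained peaks, and the 3 clusters with the most of each. Named chromosomes were the 3 with the highest and the 3 with the lowest ratio, chromosome 17 included, and chromosomes 5, 10, 18, 19 and X were named after their values were seen. Members, lists, the chromosome 17 region and the measures were chosen with earlier results of these data known. The alternatives were a reciprocal overlap of 50%, an extension of 1 kb, merging within 1 kb, leaving out the lowest width, keeping peaks wider than the median, equal numbers of the widest peaks, chromosomes 1 to 29 and X, and leaving out regions with all 4 targets. Leaving out H3K9me3 sites, the chromosome 17 region or the cluster with the most kept peaks, and exchanging the stages of the RNA pol II lists, were added after seeing the data. No gene or sequence is given, since no genome of this assembly was used here.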

Additional observations from a re-analysis of the deposited data

How the results depend on the processing

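No paired analysis was possible because each group held 1 library. Of 72 values under the alternatives, 37 stayed within the interval of the reported value (for the ratio of peak numbers, within 1.5 times) and 35 moved. The ratio stayed below 1 throughout, but 3 majorities turned: most later peaks were kept with 1 kb extension, and H3K27ac was at a minority of lost peaks after weaning and of gained peaks before weaning under reciprocal overlap. The ratio stayed between 0.110 and 0.176 wherever it could change. It and the gaps are fixed under reciprocal overlap and extension, and the ratio is 1 by construction with equal numbers. Restriction to chromosomes 1 to 29 and X moved nothing, as no H3K9ac peak lay elsewhere.

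Under reciprocal overlap of 50%, 4.20% of earlier and 28.4% of later peaks were kept, and H3K27ac after weaning at lost peaks, H3K27ac before weaning at gained peaks and H3K9me3 after weaning at gained peaks came to 35.5%, 18.3% and 7.03%. With 1 kb extension the first 4 of these were 12.3%, 57.1%, 72.0% and 61.7%. Merging within 1 kb gave 7.89% of earlier peaks kept, 14.1% of gained peaks with H3K9me3, and median gaps of 47830 and 351870 bp. Without peaks of the lowest width, 55.3% of lost peaks had H3K27ac after weaning, and the gaps were 28034 and 349854 bp. Among peaks wider than the median, 4.80% of earlier peaks were kept, 67.4% of lost peaks had H3K27ac after weaning, 27.8% of gained peaks had H3K9me3, and the gaps were 59768 and 852106 bp. With equal numbers, 15.3% of earlier and 15.8% of later peaks were kept, 83.5% of lost peaks had H3K27ac after and 67.0% of gained peaks had it before weaning, with an earlier gap of 291726 bp. Without regions of all 4 targets, 6.01% of earlier peaks were kept, 61.4% of gained peaks had H3K27ac before weaning, 8.72% had H3K9me3, and the later gap was 349854 bp. Without H3K9me3 sites these were 5.88% kept, 67.9% with H3K27ac and 373111 bp. Without the chromosome 17 region, 59.1% of gained peaks had H3K27ac before weaning and 12.7% had H3K9me3.

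The lists hold neither peak height nor depth, so how far an absent peak was below the caller's threshold is unknown, and lost or gained describes list membership only.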

Other observations

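Some H3K9ac peaks touched no other target at either stage. There were 1251 such lost peaks (9.31%, 8.83 to 9.82) and 235 such gained peaks (19.8%, 17.7 to 22.2), but 2 kept peaks before and 3 kept peaks after weaning. They were narrow, with a median of 224 bp for lost and 214 bp for gained peaks, and 24.8% (22.5 to 27.3) and 33.6% (27.9 to 39.9) of them were 200 bp wide. The lost ones were on 30 chromosomes and the gained ones on 29, with no more than 7.66% of the gained ones on any chromosome. The nearest earlier H3K9ac peak lay a median of 38744 bp from these gained peaks, against 11453 bp for gained peaks with H3K27ac and no H3K9me3. H3K9ac called alone was thus nearly always in 1 of the lists only. For the earlier list this is near the share of the list as a whole, of which 93.4% was lost. Of the whole later list 55.7% was gained.

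The gaps between neighbouring H3K9ac peaks before weaning differed in RNA pol II by their size. An RNA pol II peak lay in 10.7% (9.39 to 12.1) of the gaps up to 500 bp, in 17.5% (15.2 to 19.9) of those above 500 and up to 1000 bp and in 9.0% (7.76 to 10.4) of those above 1000 and up to 5000 bp, although the last are longer. After weaning the shares were 41.2% (31.1 to 52.2, 80 gaps), 45.7% (32.2 to 59.8, 46 gaps) and 46.7% (38.9 to 54.6, 150 gaps), and 12.8% for gaps above 10 and up to 100 kb. These values follow the labelled stages of the RNA pol II lists. H3K9me3 moved with them. Counting RNA pol II at either stage, it lay in 124 of the 135 later gaps up to 5 kb beside an H3K9ac peak with H3K9me3 (91.9%, 86.0 to 95.4) and in 14 of the 141 others (9.93%, 6.01 to 16.0). The RNA pol II list labelled after weaning had a peak in 0 of these 141. Before weaning, 43 of the gaps up to 5 kb were beside an H3K9ac peak with H3K9me3. RNA pol II at either stage lay in 35 of these 43 (81.4%, 67.4 to 90.3) and in 10.9% (10.1 to 11.8) of the 4754 others.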
